A study of Mus musculus with 2 samples.

Results

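The 10 genes described here are Bmp4, Grem1, Bmpr1a, Bmpr2, Fst, Fstl1, Inhba, Id1, Id2 and Id3, which encode ligands, secreted inhibitors, receptors and target genes of the bone morphogenetic protein (BMP) and activin pathways. They were chosen by gene symbol from a table of 24532 genes, and each symbol matched 1 row. The study measured messenger RNA in mouse cardiac myofibroblasts, the contractile, matrix-secreting cells that fibroblasts become in an injured heart. The cells were taken from C57BL/6 hearts 3 days after an infarction and grown in serum-containing medium. One library (siControl) came from cells given 12.5 nM of a control siRNA, and 1 library (siBcat1) from cells given the same dose of an siRNA against Bcat1, the cytosolic enzyme that transfers the amino group of branched-chain amino acids. Both were collected after 72 hours. How many hearts or cultures stand behind a library is not given in the sources used here, and 1 siRNA per group was used. With 1 library per group there is no spread between replicates and no test, so every difference below compares these libraries and not the conditions.

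BMPs and activins are secreted dimers of the TGF-beta superfamily that bind pairs of type I and type II serine/threonine kinase receptors. BMP receptors phosphorylate SMAD1, SMAD5 and SMAD9, whereas activin receptors phosphorylate SMAD2 and SMAD3. The ID genes are classic direct targets of BMP signalling, and their proteins bind basic helix-loop-helix factors and keep them off DNA. Gremlin 1 binds BMPs and follistatin binds activins, and both keep their ligands from the receptors. In the heart, activin A and follistatin-like 1 are known as products of fibroblasts after injury.

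Among the 9 members with enough reads to be measured, Id2 was 2.57-fold higher in siBcat1 and follistatin (Fst) was 1.84-fold higher. Fstl1 was 1.90-fold lower. Bmpr2 was 1.72-fold and Inhba 1.63-fold lower, each with the opposite sign in a setting that removes a trend on transcript length (0.60 and 0.070 on the log2 scale). Id2 was the only measured member past 2-fold. This depended on the setting. With the trend on reference transcript length removed, Id2 had 0.83 on the log2 scale, under 2-fold, and Inhba had -1.11, past 2-fold downward. Measured means a mean of 5 CPM or more (counts relative to library size) over both libraries after scaling by trimmed mean of M values (TMM), which 9935 genes passed. Of the 9 measured members, 1 passed 2-fold upward and 0 passed it downward, while 5.58% of all measured genes passed it upward and 13% downward. The median log2 fold (siBcat1 over siControl, in scaled counts) was -0.16 over the 9 members and -0.06 over all measured genes. A share of 1 in 9 rests on a single gene, so the members' count is not set apart from the background.

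The siControl library held 127309329 counts and the siBcat1 library 104581819. Bcat1 itself had 8891 and 99 counts. The log2 fold went down with transcript length (Spearman correlation -0.653) across the 9926 measured genes with a length (genes are no independent replicates), so that short transcripts were mostly higher in siBcat1 and long ones lower. The split of all genes past 2-fold (554 higher and 1292 lower) depended on the scaling. It was 823 and 1018 with upper-quartile factors, 112 and 1971 with the deposited TPM (levels scaled for transcript length and depth, on the log2(TPM + 1) scale), and 408 and 535 after the length trend was subtracted. The TPM counts cover the 8811 genes averaging 5 TPM or more, so the set of genes changes along with the scale. Relative to TMM the median of all genes moved by 0.13 with upper-quartile factors and by -0.41 with TPM over those 8811 genes. The TPM and the counts are not separate measurements. The counts per TPM differed between the libraries by a factor of 1.09 at the median, and 90.1% of measured genes, with all 9 measured members among them, lay within 1% of that factor. A member's log2 fold was therefore about 0.51 lower in TPM than in TMM-scaled counts. All 6 fibroblast markers listed were measured and all were lower in siBcat1 in scaled counts, although Pdgfra had 0.38 with the length trend removed. Their log2 folds were -1.35 for Col1a1, -1.28 for Col1a2, -0.43 for Pdgfra, -0.35 for Lum, -0.15 for Dcn and -0.09 for Tcf21. Their summed TPM was 8453 and 2652, mostly from Col1a1 (3869 and 1071) and Col1a2 (3788 and 1097). All 5 myofibroblast markers were measured, with 4 lower and 1 higher in scaled counts. Their log2 folds were -1.19 for Postn, -0.22 for Cthrc1, -0.11 for Acta2, -0.02 for Cnn1 and 0.48 for Tagln, and their summed TPM was 5342 and 3994. Of the 6 macrophage markers, Adgre1, Ptprc and C1qa had 0 counts in both libraries, while Csf1r had 370 and 272, Cd68 had 66 and 155, and Lyz2 had 717 and 2159. The cardiomyocyte markers Myh6, Ryr2 and Nppa were at 0 in both, while Tnnt2 had 6091 and 1041. The mesothelial markers Upk3b and Lrrn4 were lower, from 2320 to 405 and from 1499 to 115 counts, and Krt19 was higher, from 186 to 766. The summed TPM of the 5 mesothelial markers was 30.1 in siControl and 12.7 in siBcat1. The 6 endothelial markers were all under the minimum, with summed TPM of 10.4 and 11.7. Of the 6 pericyte and smooth muscle markers only Notch3 was measured, and their sum went from 23.9 to 6.52 TPM. What part such cells have in the values below was not tested, and in these bulk libraries fewer cells of a type and less RNA per cell cannot be told apart.

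On the TPM scale, which allows genes to be compared with each other, the members differed widely in level within each library. In siControl the order was Fstl1 with 1646 TPM, Id3 with 1151, Id1 with 176, Id2 with 82.7, Bmpr1a with 69.9, Inhba with 48.2, Bmpr2 with 21.9, Bmp4 with 17.8, Fst with 12.6 and Grem1 with 0.360. Fstl1 ranked 107 and Id3 ranked 144 among all listed genes in that library. In siBcat1 the order was Id3 with 893 TPM, Fstl1 with 609, Id1 with 163, Id2 with 150, Bmpr1a with 34.6, Inhba with 20.9, Fst with 16.3, Bmp4 with 11.2, Bmpr2 with 8.99 and Grem1 with 0.0704. Fstl1 and Id3 thus changed places at the top, Id2 came close to Id1, and Fst moved above Bmp4 and Bmpr2. No spread over replicates is available to say which neighbours in either order differ.

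**Figure D1:**
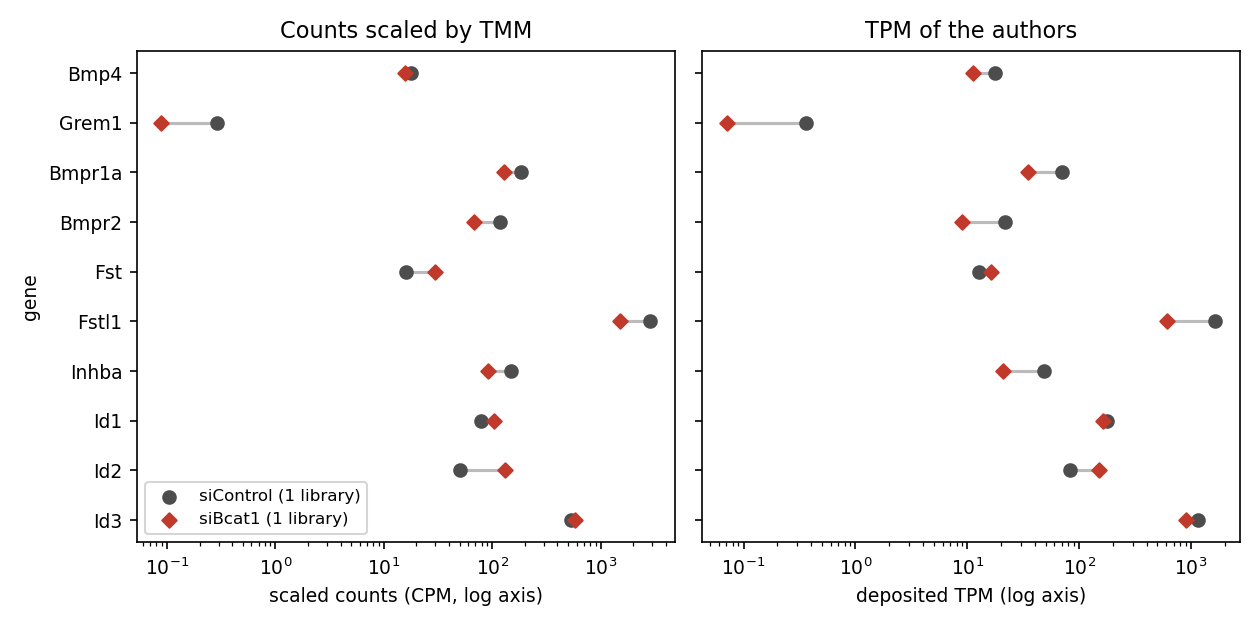
Level of each of the 10 genes in the siControl library (grey circle) and the siBcat1 library (red diamond), as TMM-scaled counts in CPM on the left and as the authors' TPM on the right, both on log axes. Id2 and Fst are higher in siBcat1 in both panels, Id1 and Id3 are higher in CPM and lower in TPM, and Grem1 lies far below the other genes.

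The ligand genes were lower in siBcat1 by different amounts, with Inhba turning sign in 1 of 9 settings. Bmp4, which encodes a BMP ligand (chromosome 14, 46383520 to 46390669, minus strand, GRCm38), had 2323 counts or 17.7 CPM in siControl and 1602 counts or 15.8 CPM in siBcat1. Its log2 fold was -0.16, with an exact (Clopper-Pearson) 95% interval of -0.25 to -0.07. These intervals cover counting error only and take reads as independent molecules, which amplified reads are not. Bmp4 kept a negative value in all 9 settings tried (TMM, 3 other scalings of counts, TPM with 2 pseudocounts, and 3 subtractions of length trends), but with upper-quartile factors it was only -0.03. Of the 200 measured genes nearest to it in transcript length, 48 had a lower log2 fold, and these neighbours ran from -0.43 at percentile 10 to 0.83 at percentile 90.

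Inhba encodes the beta A subunit, 2 of which form activin A (chromosome 13, 16011851 to 16031621, plus strand). It had 19465 counts or 148 CPM in siControl and 9226 counts or 91.1 CPM in siBcat1, a log2 fold of -0.70 (-0.74 to -0.67). Where this places Inhba among genes of like length depends on which length is used. The reference transcript matched by accession has 1529 bases, but the authors' counts and TPM imply a gene model of about 6378 bases, which is 4.17 times as long. Among the 200 genes nearest to the reference length, 3 had a lower log2 fold than Inhba, while among the 200 nearest to the implied length 115 did. Subtraction of the trend gave -1.11 with the reference length and 0.070 with the implied length. The lower Inhba value in siBcat1 is therefore as measured, but its standing apart from length is not settled by these files. For 6 of the other 8 measured members the implied length was 0.859 to 1.11 times the reference. The exceptions were Fst, at 1.43 times the reference length, and Id3, at 0.746 times.

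The secreted inhibitors went in opposite directions. Fst, which encodes follistatin, the activin-binding protein (chromosome 13, 114452290 to 114458951, minus strand), had 2110 counts or 16.1 CPM in siControl and 2985 counts or 29.5 CPM in siBcat1. Its log2 fold was 0.88 (0.80 to 0.96), higher than in 183 of the 200 genes nearest in length. Fst was the only member other than Id2 that was higher in all 9 settings, from 0.35 with TPM to 1.00 with upper-quartile factors. The ratio of Fst to Inhba within a library does not depend on the scaling between libraries. It was 0.261 on the TPM scale in siControl and 0.782 in siBcat1. These levels rest on the authors' gene model for Inhba, whose implied length is 4.17 times the reference, and so does the place of Inhba in the order of TPM levels; the change of the ratio between libraries does not use it. In counts this ratio was 2.98-fold higher in siBcat1, with a 95% counting interval of 2.81 to 3.17 on the log-normal approximation. It was 3.32-fold higher after subtraction of the trend on reference length and 1.75-fold higher with the implied length, so that its direction was kept and its size was not.

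Fstl1, a secreted glycoprotein related to follistatin by its cysteine-rich domain (chromosome 16, 37776873 to 37836514, plus strand), was the most abundant member in siControl. It had 376228 counts or 2863 CPM there and 152266 counts or 1503 CPM in siBcat1. The log2 fold of -0.93 (-0.94 to -0.92) was the lowest of the 9 measured members, and 24 of the 200 genes nearest in length were lower still. It was negative in all 9 settings, between -1.43 with TPM and -0.62 with the length trend removed. With library totals as the scale the fold was -1.02, just past 2-fold. The summed TPM of the fibroblast markers, mostly Col1a1 and Col1a2, was lower in the same library, 2652 against 8453. Its part in the Fstl1 value was not tested.

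Grem1, which encodes the BMP antagonist gremlin 1 (chromosome 2, 113746164 to 113758646, minus strand), had 38 counts in siControl and 9 in siBcat1, or 0.289 and 0.0888 CPM. It is the member left out of the counts of measured genes. Its log2 fold of -1.70 had an interval of -2.94 to -0.63, wider than that of any other member. The libraries thus differed by more than counting error at a level far under the minimum.

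The receptor genes were lower in siBcat1 in scaled counts and TPM, to about the degree of other long transcripts, a sign that turned for both once the trend on length was subtracted. Bmpr1a, which encodes a type I BMP receptor also called ALK3 (chromosome 14, 34410734 to 34503341, minus strand), had 24258 counts or 185 CPM in siControl and 13133 counts or 130 CPM in siBcat1, a log2 fold of -0.51 (-0.54 to -0.48). Bmpr2, which encodes the type II BMP receptor (chromosome 1, 59763400 to 59879014, plus strand), had 15390 counts or 117 CPM and 6911 counts or 68.2 CPM, a log2 fold of -0.78 (-0.82 to -0.74). At 5956 and 12899 bases these are the longest reference transcripts among the members. The 200 genes nearest in length had a median log2 fold of -0.67 around Bmpr1a and -1.26 around Bmpr2, and 122 and 148 of them were lower than the receptor. Both receptors therefore lay within the range of their neighbours, and after subtraction of the trend Bmpr1a had 0.21 and Bmpr2 had 0.60. With trends on length and GC content removed, these were -0.07 and 0.30. The counts of Bmpr1a relative to Bmpr2 were 1.21 times as high in siBcat1 as in siControl, and 0.766 times as high after length adjustment.

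**Figure D2:**
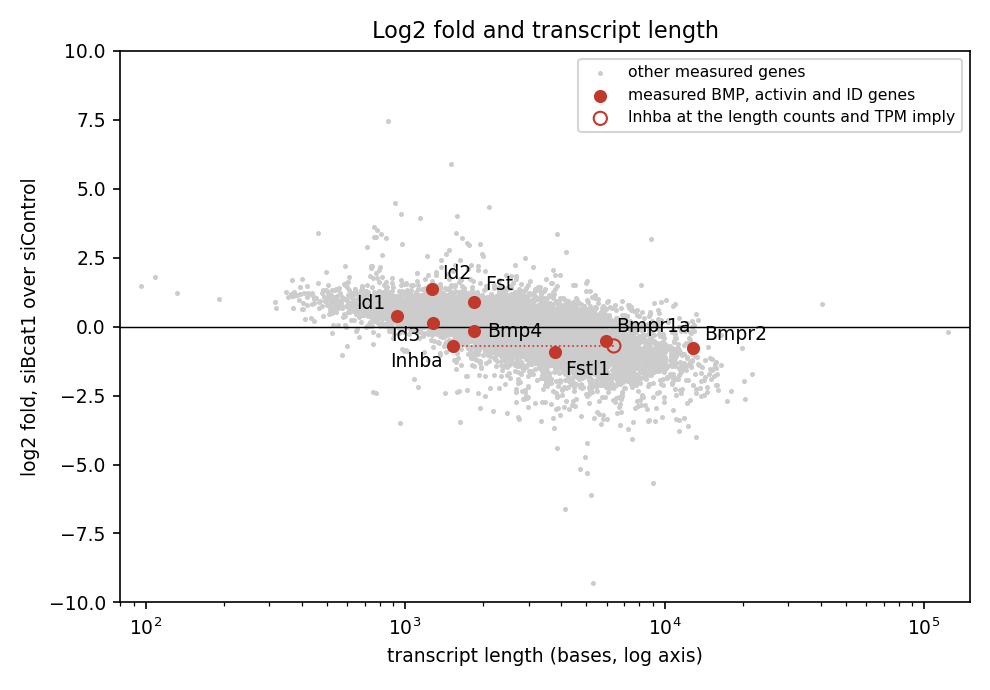
Log2 fold of siBcat1 over siControl in TMM-scaled counts (vertical axis) against reference transcript length in bases (log axis), for measured genes (grey) and the 9 measured members (red), with an open circle for Inhba at the length that counts and TPM imply. Id2 and Fst lie in the upper part of genes of their length, and Bmpr1a and Bmpr2 within the band of long transcripts. Id2 at 1.36 is above the percentile 90 of its neighbours, 1.09, and Fst at 0.88 is a little above that of its own, 0.82. Fstl1 lies in the lower part of genes of its length, at -0.93 above their percentile 10 of -1.01.

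The 3 ID genes, which encode short proteins with a helix-loop-helix domain and no DNA-binding region, differed from each other. Id2 (chromosome 12, 25093799 to 25097140, minus strand) had 6667 counts or 50.7 CPM in siControl and 13195 counts or 130 CPM in siBcat1. Its log2 fold was 1.36 (1.32 to 1.40), higher than in 191 of the 200 genes nearest in length. Those neighbours, of 1221 to 1321 bases, had a median of 0.56, and 15% of them passed 2-fold upward, so that the background for a gene of this length is above the 5.58% of all genes. Id2 was positive in all 9 settings. It was past 2-fold in the 4 that scale whole libraries of counts, and under 2-fold with TPM (0.85) and with the length trend removed (0.83). The lowest value, 0.60, came with length and GC trends removed.

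Id1 (chromosome 2, 152736251 to 152737410, plus strand) had 10422 counts or 79.3 CPM in siControl and 10579 counts or 104 CPM in siBcat1, a log2 fold of 0.40 (0.36 to 0.44). Id3 (chromosome 4, 136143497 to 136145755, plus strand) had 69495 counts or 529 CPM and 59022 counts or 583 CPM, a log2 fold of 0.14 (0.12 to 0.16). These small positive values had no firm direction. With TPM they were -0.11 for Id1 and -0.37 for Id3, and with the length trend removed -0.29 and -0.39. Against the 200 genes nearest in length, 50 were lower than Id1 and 38 lower than Id3. Each of these ID genes was thus in the lower part of its short-transcript neighbours, where Id2 was near the top.

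The reference transcripts of Id2 and Id3 have almost the same length, 1270 and 1278 bases, so their ratio is little touched by the trend on that length. In TPM, 1 Id2 transcript stood against 13.9 Id3 transcripts in siControl and 5.97 in siBcat1. The ratio of counts was 2.33-fold higher in siBcat1 (95% counting interval 2.26 to 2.40), and 2.32-fold higher after length adjustment, 2.59-fold with the implied length and 1.80-fold with length and GC trends removed. The GC content of the transcripts differs, with 42.4% in Id2 and 55.6% in Id3. Id2 relative to Id1 was 1.95-fold higher (1.87 to 2.03), and Id1 relative to Id3 was 1.20-fold higher (1.16 to 1.23). Of the summed TPM of Id1, Id2, Id3 and Id4, Id2 held 5.84% in siControl and 12.3% in siBcat1. The share of Id3 went from 81.3% to 73.7% and that of Id1 from 12.4% to 13.5%, with Id4 under 1% in both.

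**Figure D3:**
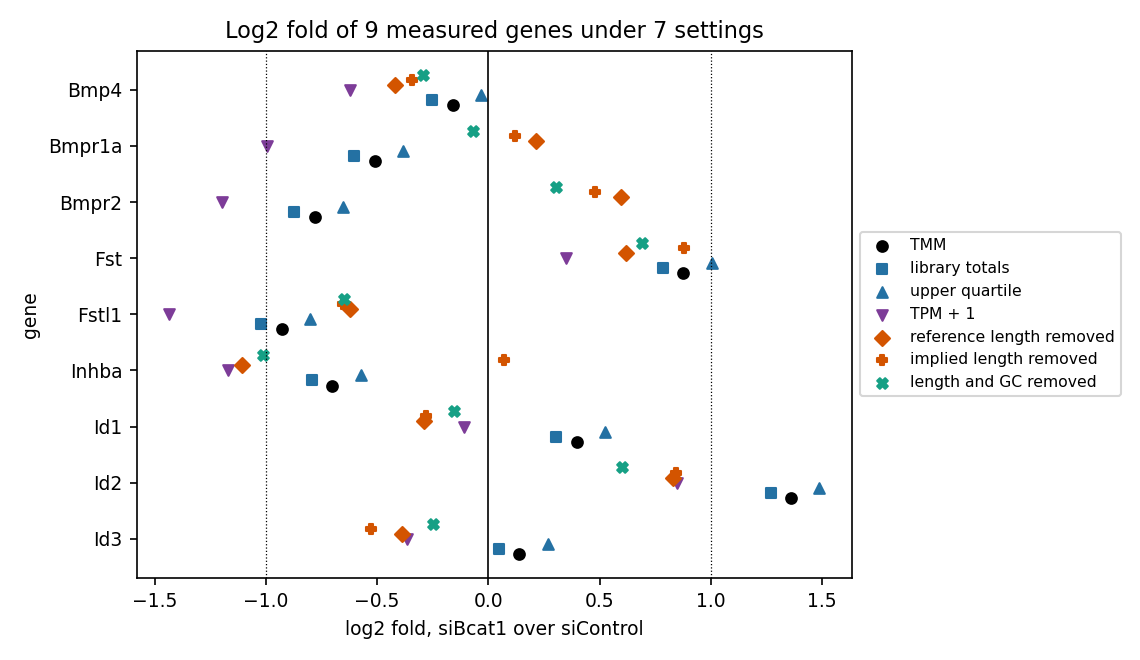
Log2 fold of each of the 9 measured members under 7 settings, which are 3 scalings of counts, TPM with a pseudocount of 1, and 3 subtractions of trends on transcript length or GC content; dotted lines mark 2-fold. Id2 and Fst lie right of 0 and Bmp4 and Fstl1 left of 0 in every setting shown, and the other 5 genes have values on both sides.

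A GC-rich palindrome, GGCGCC, is known from BMP-responsive elements of ID genes, where SMAD1 and SMAD5 bind it. It was searched, with CAGAC, which holds the SMAD box and reads GTCTG on the other strand, in the 250 bases before the RefSeq start site of each gene (GRCm38.p6). The table used held 8 of the 10 members, without Fst and Id1. GGCGCC was in 4 of these 8, namely Id2, Bmpr1a, Bmpr2 and Grem1, against 9.54% of 27025 promoters of the same length and 18.1% of the 7746 promoters of measured genes. Grem1 is not a measured gene, so the second share does not cover it. The windows of these 4 members had a GC content of 62.8% to 78.8%, and no share over promoters of like GC content was computed. CAGAC was in 2 of the 8, Grem1 and Id3, against 42.1% of all promoters and 39.7% of those of measured genes. The E-box CACGTG, also searched, was in 1 of the 8, Bmp4, against 6.05% of all promoters and 8.92% of those of measured genes. Sequences are shown for the members with GGCGCC, since the gene with the highest fold is among them. Only bases of the window that lie upstream of every annotated exon touching it are shown, which leaves none for Bmpr2. Other annotated transcripts of Id2 and Bmpr1a start farther upstream, so these stretches lie within the annotated span of the gene. The windows of Bmpr2 and Id3 also lie within the annotated span, and none of their bases is upstream of every annotated exon. The GGCGCC match in Bmpr2 and the CAGAC matches in Id3 are therefore not upstream of the annotated gene. Capitals mark GGCGCC, and the strand is that of the gene.
Id2 (chr12:25096254-25096342, minus): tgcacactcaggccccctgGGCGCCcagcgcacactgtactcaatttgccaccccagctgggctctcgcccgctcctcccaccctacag
Bmpr1a (chr14:34502688-34502796, minus): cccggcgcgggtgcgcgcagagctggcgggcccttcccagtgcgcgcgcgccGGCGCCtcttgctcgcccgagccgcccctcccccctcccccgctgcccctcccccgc
Grem1 (chr2:113758649-113758898, minus): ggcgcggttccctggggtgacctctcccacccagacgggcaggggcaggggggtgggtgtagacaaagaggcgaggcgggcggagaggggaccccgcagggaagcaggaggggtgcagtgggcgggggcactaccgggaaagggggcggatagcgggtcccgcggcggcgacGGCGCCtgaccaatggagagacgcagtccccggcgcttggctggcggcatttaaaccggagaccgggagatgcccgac

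The match begins 231 bases before the start site in Id2, 198 in Bmpr1a and 78 in Grem1. Of the measured members that hold it, Id2 was higher and Bmpr1a and Bmpr2 were lower in siBcat1 in scaled counts, whereas with the length trend removed these 3 had 0.83, 0.21 and 0.60, all positive. With length and GC trends removed they had 0.60, -0.069 and 0.30. A match is a description of these letters and not a binding site, and its absence says only that the letters are not in this window.

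The rest of the pathway, 63 further genes in 7 lists that share a few members, had 37 measured genes. Past 2-fold were 1 of these upward (2.70%) and 4 downward (10.8%), and 32 lay within it, with a median log2 fold of -0.15 and, length-adjusted, of -0.03. Both shares are near or under those of all measured genes.

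Among the other BMP and GDF ligands, 3 of 10 were measured and none was past 2-fold. Gdf6, a BMP-type ligand of skeletal patterning, was the most abundant, with 41489 and 20785 counts and a log2 fold of -0.62. Bmp6 had 8264 and 4458 counts (-0.51), and Gdf15, a stress-induced cytokine, had 1067 and 1341 (0.71). After length adjustment Gdf6 had -0.37, Bmp6 -0.25 and Gdf15 0.26, and Gdf15 had 0.13 with TPM. Bmp2 was far under the minimum with 58 and 84 counts, and Bmp7 had 0 in both libraries. Of the other activin and nodal ligands, 2 of 7 were measured. Inhbb, which encodes the beta B subunit of activin, had 19026 and 8776 counts, a log2 fold of -0.74 next to the -0.70 of Inhba, and Gdf11 had 2978 and 2952 (0.36). Inha, which encodes the alpha subunit of inhibins, had 73 and 79 counts. Length-adjusted, Inhbb had -0.33, and Inhba had -1.11 or 0.070 depending on the length used. In TPM, Inhbb had 70.6 and 29.7. The median over the measured genes of this list, without Inhba, changed sign in 4 of 11 other settings.

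Receptors and coreceptors other than the members had 2 of 8 measured genes past 2-fold downward, 0 upward and a median of -0.59, beside 13% downward and a median of -0.06 over all measured genes. The 200 genes nearest to 4148 bases, the reference length of Grem1, had 17.5% downward and a median of -0.46. At a median reference length of 4002 bases the receptors and coreceptors had a median of -0.37 after length adjustment. Acvr1b, which encodes the activin type I receptor ALK4, had the largest difference, with 3401 counts or 25.9 CPM in siControl and 651 counts or 6.43 CPM in siBcat1. Its log2 fold was -2.01 (-2.13 to -1.89) and -1.57 after length adjustment, and so more than 2-fold lower with and without the trend. Tgfbr3, the coreceptor betaglycan that also binds inhibin, had -1.08 (length-adjusted -0.34), and Rgma, a BMP coreceptor, had -0.89 (length-adjusted -0.63). The median of this list kept its sign in the 11 other settings that bear on it, from -1.09 to -0.27. Bmpr1b, which encodes another type I receptor of BMPs, had 139 and 144 counts and was under the minimum. The type I receptor genes Acvr1 and Acvrl1 were measured. Acvr1 had 7800 and 5114 counts (-0.23, length-adjusted -0.08). Acvrl1 had 28826 and 16233 counts (-0.45, length-adjusted -0.41). Of the 8 measured genes of this list, 7 were lower and 1 was higher in scaled counts.

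Of the other secreted antagonists and modulators, 4 of 12 were measured. Nbl1, which encodes the BMP antagonist also called DAN, was the gene past 2-fold, with 5834 and 9385 counts and a log2 fold of 1.06 (1.01 to 1.11), and 0.78 after length adjustment. Fstl3, a follistatin-like inhibitor of activin, had -0.46 (length-adjusted -0.68), opposite in sign to Fst. Twsg1, an extracellular BMP modulator, had -0.33, but 0.05 after length adjustment. The classic antagonists Nog and Chrd were under the minimum, with 26 and 34 counts for Nog and 277 and 53 for Chrd.

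Of the 9 measured SMADs and ubiquitin ligases, 8 lay within 2-fold in scaled counts. Which gene lay past 2-fold depended on the setting. Smurf1, a ligase that marks BMP-pathway SMADs and receptors for degradation, was lower, from 14877 to 4444 counts, with -1.37 before and -1.01 after length adjustment. Smad6, the inhibitory SMAD of the BMP branch and itself a target gene, had 11168 and 12523 counts and a log2 fold of 0.54, which was 0.64 length-adjusted and 0.03 with TPM. Smad3 had 0.38, and its length-adjusted value was 0.94. With length and GC trends removed, Smad3 had 1.05, past 2-fold upward, and Smurf1 had -0.87, under 2-fold.

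None of the 6 measured BMP-SMAD target genes outside Id1 to Id3 was past 2-fold, and 3 of them were higher and 3 lower. Smad6 had the largest value, followed by Msx1 with 0.52 (590 and 652 counts) and Id4 with 0.44 (603 and 631 counts). The list median was 0.17 in scaled counts, 0.38 with the length trend removed, and -0.29 with TPM over the same 6 genes. Over the genes of the list with at least 5 TPM, a different set, it was -0.53 with TPM. In scaled counts Id2 at 1.36 was above every measured gene of this list. With the length trend removed Id2 had 0.83 and Id4 0.76. With length and GC trends removed Id2 had 0.60, below Smad6 with 0.75.

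The basic helix-loop-helix partners of ID proteins had 1 of 7 measured genes past 2-fold. Tcf12, which encodes the E protein HEB, went from 13876 to 4914 counts, with -1.12 before and -0.67 after length adjustment. Tcf4, another E protein gene, had -0.78 (length-adjusted -0.03), and Twist1, a mesenchymal factor, had 0.45 (length-adjusted 0.09). The list median was -0.09.

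**Figure D4:**
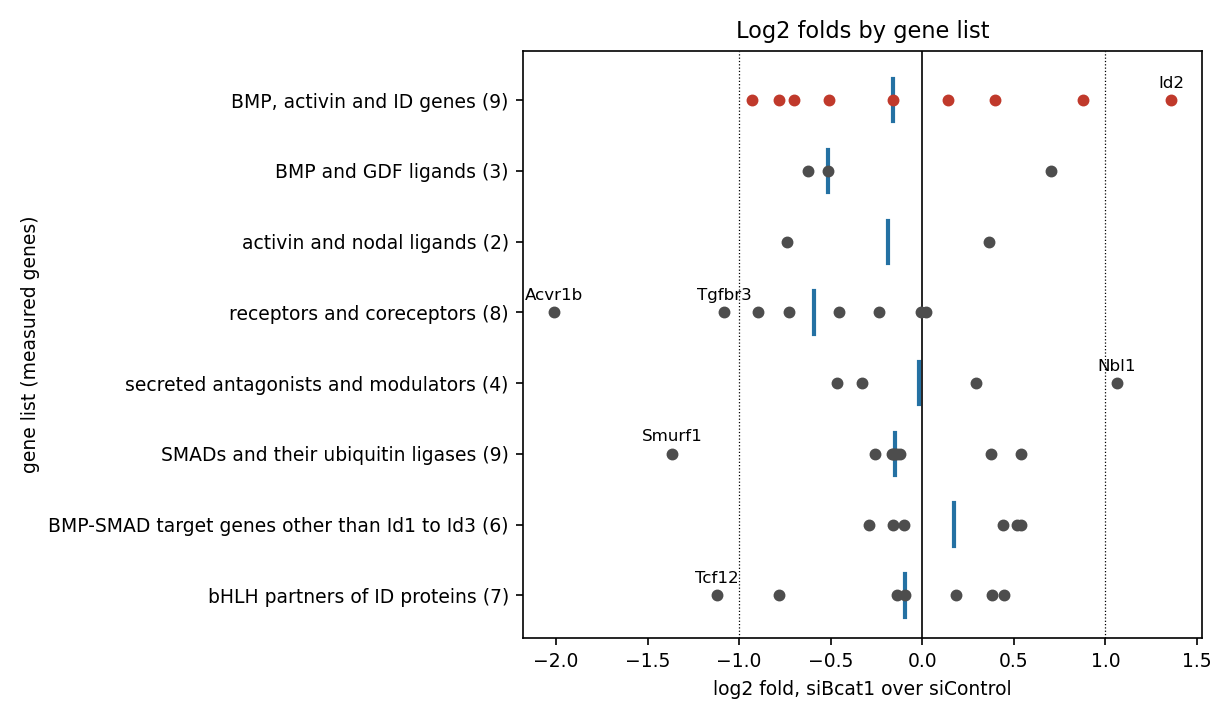
Log2 fold of siBcat1 over siControl in TMM-scaled counts for the measured genes of each list (1 point per gene), with the 9 measured members in red; blue bars are list medians and dotted lines mark 2-fold. The receptor list has its median at -0.59 with Acvr1b at the far left, and Id2 is the point farthest to the right.

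Gene models on the other strand overlap exons of 3 members. These are Gm15217 at Bmp4, with 0 counts in both libraries, Gm17110 at Bmpr1a and Gm47040 at Fst, the last of which are not analysed here. Whether strand was used in counting is not given in the sources used here, so reads of these partners cannot be told apart from those of the members. No exon of another annotated gene overlaps Grem1, Bmpr2, Fstl1, Inhba, Id1, Id2 or Id3.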

How the data were processed

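RNA was read from 1 siControl and 1 siBcat1 library. The deposited read counts per gene are whole numbers and not normalized. The deposited TPM values are the authors' own, named so per the file headers, and adjust for length and depth. FastQC, Trimmomatic, HISAT2, StringTie and build mm10 are named, without roles or versions, per the submitters' processing notes. The counting tool and its use of strand are not given here or in the labels.

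Groups follow the treatment label. Counts were scaled by TMM in edgeR 4.0.16 (R 4.3.3), with factors of 1.03 and 0.969. Alternatives were upper-quartile factors, library totals, size factors of DESeq2 1.42.0, and TPM with pseudocounts of 1 and 0.1. Genes averaging 5 CPM or more were kept, or 5 TPM or more in the TPM settings. A count of 0 in 1 library was set to 3. Length trends were lowess curves (fraction 0.3, 3 iterations, statsmodels 0.14.6) on log2 length from GENCODE M21 (GRCm38), matched by RefSeq accession for 9887 of 9935 genes, or on the length that counts and TPM imply. Removal of length and GC trends together was added after the data were seen. Intervals are exact 95% binomial intervals from both counts of a gene, so precision follows its depth. The calculations were tested on simulated data. Promoter sequences are from RefSeq (GRCm38.p6).

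All members were named, with Bcat1 and up to 3 measured genes per list with the largest absolute log2 fold. Other genes named, and the pairs of genes set in ratio, were chosen after their values were seen. The members and lists were chosen with earlier results of these data known. Python 3.11.15 was used with scipy 1.17.1, pandas 2.3.3, matplotlib 3.10.9 and numpy 2.4.6.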

Additional observations from a re-analysis of the deposited data

How the results depend on the processing

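Counts past 2-fold are given here as higher and then lower. With TMM they were 554 and 1292 over all genes, 1 and 0 over the members, and 1 and 4 over the pathway lists. DESeq2 size factors and a minimum of 1 CPM left each within 1.5 times these values. Library totals gave 1 lower member and 0 higher pathway genes. Upper-quartile factors gave 2 higher members and 2 lower pathway genes. TPM with a pseudocount of 1 gave 112 and 1971 genes, 0 and 3 members, and 0 and 9 pathway genes, with Id1 at -0.11 and Id3 at -0.37. With a pseudocount of 0.1 these were 120 and 2211, 0 and 4, and 0 and 10, with the same -0.11 and -0.37. With the trend on reference length removed there were 535 lower genes, 0 and 1 members, and 0 and 2 pathway genes, and Bmpr1a had 0.21, Bmpr2 0.60, Id1 -0.29 and Id3 -0.39. With the implied length there were 531 lower genes, 0 higher members and 1 lower pathway gene, and Bmpr1a had 0.12, Bmpr2 0.48, Inhba 0.070, Id1 -0.28 and Id3 -0.53. With length and GC trends removed there were 343 and 513 genes, 0 and 1 members and 1 lower pathway gene, and Bmpr2 had 0.30, Id1 -0.15 and Id3 -0.25. A minimum of 20 CPM gave 352 and 752 genes, because fewer genes enter. No minimum, with a prior count of 0.5, gave 2084 and 3086 genes, 1 lower member (Grem1), and 6 and 8 pathway genes. A threshold of 1.5-fold gave 1750 and 2544 genes, 2 and 3 members, and 2 and 9 pathway genes, and 3-fold gave 94 and 452 genes, 0 higher members, and 0 and 1 pathway genes. For the changes of sign of single genes the cause was not tested beyond the subtraction of the trends themselves. Depth limits Grem1 alone among the members. No paired analysis was possible because each group has 1 library.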
